A study of Homo sapiens with 8 samples.

Results

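Nuclear pore and nuclear transport receptor genes were followed in 2 human lines of T-cell acute lymphoblastic leukaemia exposed to β-Catenin/Tcf Inhibitor II, a small molecule that keeps β-catenin from binding TCF proteins. The set was defined by name and holds 49 of the 57189 genes in the count tables: 25 nucleoporins, 14 importins, 7 exportins and 3 genes of the Ran cycle. It was chosen with earlier results of these data known. All 49 were found under their own symbols. CUTLL1 cells with the inhibitor and TIB153 cells with the inhibitor were each set against control cells of the same line. The labels spell the first line CUTTL1, call the controls untransfected and give neither dose nor time. The study describes a day of exposure to a micromolar dose of the compound and placebo for the controls. All cells were grown in RPMI with serum, and no group carried a genetic change made for the experiment. Each group was 1 poly(A) RNA-seq library, sequenced in 2 lanes that were summed.

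The nuclear pore complex is a ring-shaped channel in the nuclear envelope, built from stacked outer and inner rings, a membrane-anchored ring, a channel filled with phenylalanine-glycine repeats, cytoplasmic filaments and a nuclear basket. Importins and exportins carry cargo through it, and the small GTPase RAN, bound to GTP in the nucleus and to GDP in the cytoplasm, sets the direction of transport. β-catenin itself is known to pass through the pore largely without classical importins, and the export receptor XPO1 is a drug target in leukaemia and myeloma.

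Library totals lay between 7609427 and 8140391 counts, and the members took 1.06% and 0.946% of the counts in inhibitor-treated CUTLL1 and TIB153 cells, against 1.152% and 1.098% in control cells. The lanes of each library differed by no more than sampling noise (chi-square per degree of freedom 0.990 to 1.02). All 12 T cell markers of a fixed list were detected, with a summed level of 2410 and 2890 scaled CPM (CPM, reads of a gene relative to its library's TMM-scaled total) in treated CUTLL1 and TIB153 cells and 3030 and 2980 in control cells. CD3G, CD7 and CD247 fell among them. The 6 myeloid markers summed to 1.87 and 0.716 scaled CPM in treated cells and 3.38 and 0.782 in control cells, and the erythroid markers to at most 0.13. MS4A1, CSF1R and EPCAM, markers of B cells, macrophages and epithelium, had 0 counts in every library, a value that allows up to 3 counts. Some other markers of these lists were detected. KRT8 had 36 counts in each CUTLL1 library, and EBF1 had 30 in treated and 16 in control TIB153 cells. ITGAM had 10 in treated and 20 in control CUTLL1 cells, and COL1A1 had between 19 and 38 in every library. The 7 stromal and epithelial markers summed to 7.37 and 5.02 scaled CPM in treated CUTLL1 and TIB153 cells and 8.12 and 5.6 in control cells. The B cell gene CD79A was present, at 13.6 and 104 scaled CPM in treated CUTLL1 and TIB153 cells and 10.8 and 79.2 in control cells.

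Across both lines, 0 members rose and 11 fell among the 48 that could be tested, with the remaining 37 not passing the test. The 11 were NUP210, NUP88, NUP188, NUP155, NUP133, NUP93, CSE1L, XPO1, XPO5, IPO9 and RAN, and their log2 changes ran between −0.39 and −1.04. The comparison used edgeR's quasi-likelihood test with cell line as a block, n = 2 lines and Benjamini-Hochberg adjustment over the 13280 genes tested. Of all genes tested, 6.11% rose and 6.78% fell, beside 0% and 22.9% of the tested members. A gene with more reads is easier to call, and these shares were not matched for reads. Because the set was chosen with earlier results of these data known, the shares are a description and not an independent test. At an unadjusted edgeR p under 0.05, 2 members were higher and 21 lower in treated cells, against 13.9% and 14.8% of all genes tested. DESeq2 called 0 members higher and 4 lower (NUP210, CSE1L, XPO1 and NUP188), against 1.9% and 2.44% of the 10190 genes to which it gave an adjusted p, and scaling by total counts left 5, the same 4 and NUP88. In bulk RNA, fewer transcripts per cell and fewer cells that carry them cannot be told apart.

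The members' median log2 ratio of treated over control was −0.14 in CUTLL1 and −0.24 in TIB153, beside 0.0 and −0.01 over all genes tested. The ratio was negative in both lines for 32 of the 48 tested members (66.7%), a pattern shown by 35.7% of all genes tested. Within a line there was 1 library per group, so these ratios have no replicate error and no p-value, and their 95% intervals (Clopper-Pearson) cover counting error only. In CUTLL1, 0 members were at least 1.5-fold higher beyond counting error and 1, NUP210, was lower (2.08%), against 9.49% higher and 6.39% lower over all genes. In TIB153, 0 members were higher and 7 lower (14.6%), against 11.4% higher and 9.81% lower over all genes. The 7 were NUP210, NUP88, CSE1L, IPO9, IPO11, XPO4 and XPO1. The plot of all members by role shows each ratio with its counting interval.

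**Figure D1:**
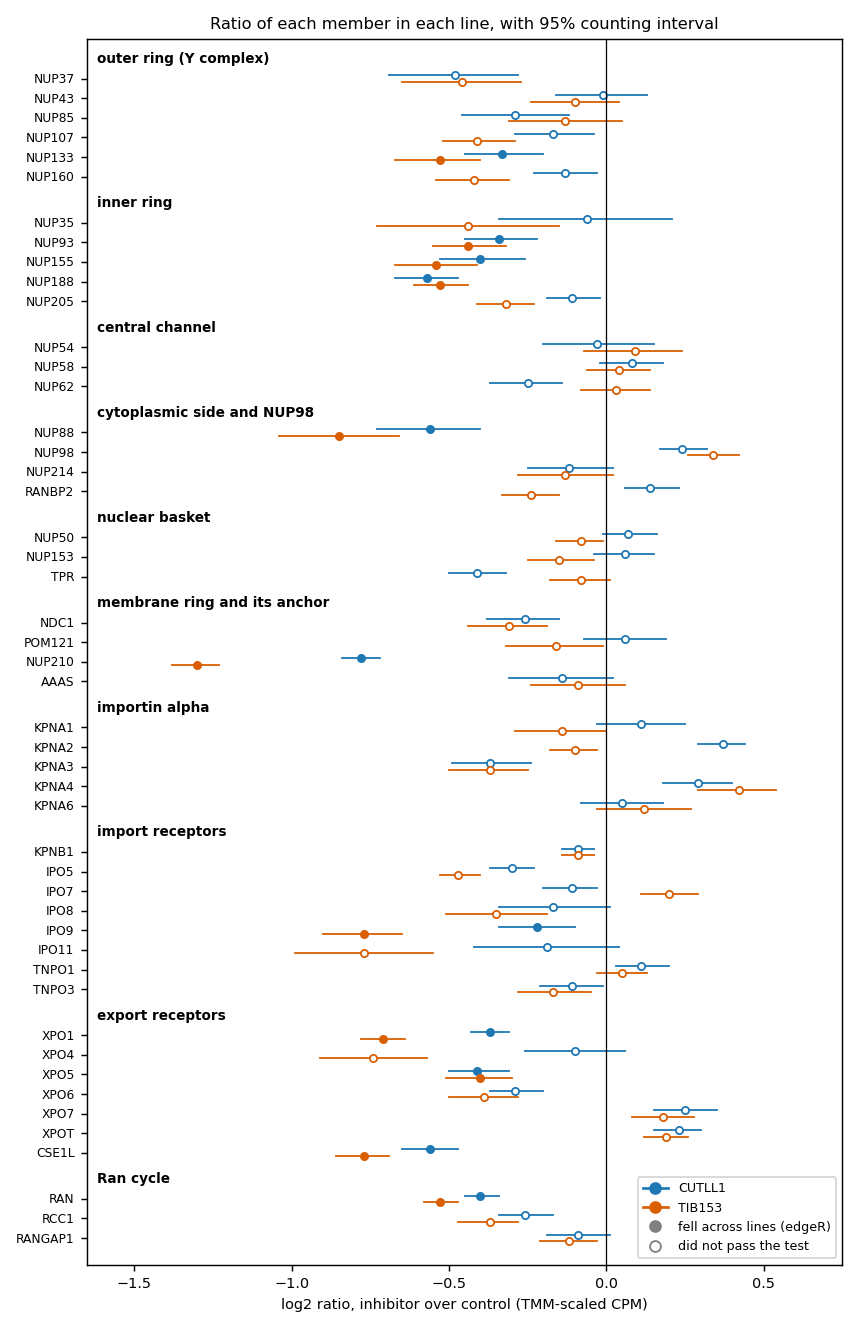
Log2 ratio, inhibitor over control, for the 48 tested members in CUTLL1 (blue) and TIB153 (orange), ordered by role. Lines are 95% counting intervals, and filled points mark the 11 members that fell across lines. NUP210 lies furthest to the left, at −0.78 and −1.30, and KPNA4 furthest to the right in TIB153, at 0.42.

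NUP210 (chr3:13316235-13420309, minus strand, hg38) encodes a transmembrane protein that helps to anchor the pore in the nuclear envelope, and in other systems it is expressed in a cell-type-restricted way. Its level was 488 and 243 scaled CPM in treated CUTLL1 and TIB153 cells, against 838 and 599 in control cells. Both treated libraries lay below both control libraries. Such separations, here and below, restate the values that the test used, and their share over all genes tested is not given. The change across lines was −1.04 on the log2 scale (SE 0.146, edgeR adjusted p = 0.00148), a level 2.05-fold lower in treated cells. Within lines the ratio was −0.78 (interval −0.84 to −0.72) in CUTLL1 and −1.30 (−1.38 to −1.23) in TIB153. It was the only member past 2-fold in either line, and this was so in TIB153. There are 3 annotated pseudogenes that carry the name of NUP210, and whether they share its reads was not tested.

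The other members of the membrane ring differed less. POM121, which links the ring to the inner scaffold, had ratios of 0.06 and −0.16, and its reads may be shared with the near-identical POM121C. NDC1, a transmembrane nucleoporin, stood at 145 and 118 scaled CPM in treated CUTLL1 and TIB153 cells and 174 and 146 in control cells, with a change of −0.29 (edgeR adjusted p = 0.132). AAAS, the protein mutated in triple A syndrome and held at the pore by NDC1, had ratios of −0.14 and −0.09, both within counting error.

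The upstream sequences of 4 members that fell are shown to let the reader see what lies at their starts: NUP210, the member with the lowest ratio, NUP188, NUP133 and XPO1, whose bases next to the start overlap no annotated exon. They end at the base before the RefSeq transcription start, run 5′ to 3′ on the gene's strand and come from GRCh38.p14. They lie at chr3:13420323-13420442 (minus) for NUP210, chr9:128947620-128947698 (plus) for NUP188, chr1:229508342-229508461 (minus) for NUP133 and chr2:61538357-61538476 (minus) for XPO1. The XPO1 stretch lies inside the GENCODE span of that gene, which begins further upstream than the RefSeq start used here. Capitals mark CACGTG, the E-box read by MYC.
NUP210: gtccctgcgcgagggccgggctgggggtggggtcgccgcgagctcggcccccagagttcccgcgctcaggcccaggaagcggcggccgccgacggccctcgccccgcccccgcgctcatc
NUP188: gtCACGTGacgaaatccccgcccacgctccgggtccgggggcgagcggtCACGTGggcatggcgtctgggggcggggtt
NUP133: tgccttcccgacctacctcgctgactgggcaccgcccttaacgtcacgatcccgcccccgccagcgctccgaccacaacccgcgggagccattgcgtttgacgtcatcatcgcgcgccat
XPO1: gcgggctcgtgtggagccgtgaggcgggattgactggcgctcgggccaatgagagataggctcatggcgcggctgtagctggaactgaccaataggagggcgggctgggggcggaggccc
G and C made up 81.7% of the NUP210 stretch, 73.4% of that of NUP188, 68.3% of that of XPO1 and 66.7% of that of NUP133.

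Motifs were searched on both strands in RefSeq windows of 250 bases before to 50 bases after each start, which were at hand for 45 of the 49 members. The TCF/LEF core CTTTGA, the sequence that TCF proteins read, was found in 5 of 45 member windows (11.1%) and in 0 of the 11 of members that fell, against 13.1% of all 27305 promoters and 8.6% of the 9588 promoters of tested genes. The 5 were IPO5, IPO11, KPNA2, NDC1 and NUP153. The E-box CACGTG stood in 6 member windows (13.3%), against 7.4% of all promoters and 10.4% of those of tested genes. The 6 were IPO4, IPO7, KPNA3, NUP50, RAN and NUP188, which has 2 copies in the stretch shown. Of the 11 windows of members that fell, 2 had it, those of RAN and NUP188. The ETS core CCGGAAG was in 15 windows (33.3%, against 10.7% and 20.4%), NUP88 being the only member with it that fell. The NRF1 sequence GCATGCGC was in 5 windows (11.1%, against 3.3% and 6.0%), and the heat shock core GAANNTTC in 2 (4.4%, against 6.9% and 4.5%). The CHR element TTTGAA, known from cell cycle genes and able to overlap CTTTGA, was in 11 windows (24.4%, against 15.4% and 9.5%). They were those of CSE1L, IPO7, IPO11, KPNA2, NDC1, NUP35, NUP37, NUP98, NUP153, NUP205 and RAN. Among the 11 members that fell, 2 had it, CSE1L and RAN. A match describes letters in the window and is not evidence of binding.

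All 6 outer ring genes, which encode the Y-shaped scaffold complex, had negative ratios in both lines, with medians of −0.23 in CUTLL1 and −0.42 in TIB153. Of all genes tested, 35.7% were negative in both lines. NUP133 passed the test. It lies at chr1:229440260-229508341 (minus strand) and stood at 116 and 91.6 scaled CPM in treated CUTLL1 and TIB153 cells, against 146 and 133 in control cells. The treated libraries were both below the control libraries, and the change was −0.43 (SE 0.126, edgeR adjusted p = 0.0379). NUP37 had a change of about the same size, −0.47, with 355 and 419 counts in treated CUTLL1 and TIB153 cells and 458 and 529 in control cells, but its edgeR adjusted p was 0.0511. NUP107, the partner of NUP133 in the stem of the complex, had ratios of −0.17 and −0.41, and NUP160 of −0.13 and −0.42. NUP85 (−0.29 and −0.13) and NUP43 (−0.01 and −0.10) made up the rest. SEH1L, a further protein of the same complex that is no member of the set, fell by 0.61 (edgeR adjusted p = 0.00712).

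The inner ring, the part of the scaffold that lines the membrane, had 3 of 5 genes that fell, against 6.78% of all genes tested. Its median ratios were −0.34 in CUTLL1 and −0.44 in TIB153. NUP188 (chr9:128947699-129007096, plus strand), a large scaffold protein that binds NUP93, stood at 184 and 235 scaled CPM in treated CUTLL1 and TIB153 cells, against 273 and 338 in control cells. All treated values were below all control values. The ratios of −0.57 (−0.67 to −0.47) and −0.53 (−0.61 to −0.44) were close to each other, and the change was −0.55 (SE 0.122, edgeR adjusted p = 0.0126). NUP155 (chr5:37288137-37371181, minus strand), which ties the inner ring to the membrane, stood at 102 and 104 scaled CPM in treated cells and 134 and 151 in control cells. The groups did not overlap, and the change was −0.47 (SE 0.124, edgeR adjusted p = 0.0252). NUP93 (chr16:56730105-56850286, plus strand), the linker at the heart of the inner ring, stood at 151 and 137 scaled CPM in treated cells and 190 and 186 in control cells. Its change of −0.39 (SE 0.121) was at the threshold, with an edgeR adjusted p of 0.04997. NUP205, a relative of NUP188, had ratios of −0.11 and −0.32, and NUP35 of −0.06 and −0.44.

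The 3 genes of the central channel, whose repeats form the permeability barrier, did not pass the test. NUP54 had ratios of −0.03 and 0.09 and NUP58 of 0.08 and 0.04, all within counting error. NUP62 had ratios of −0.25 in CUTLL1 and 0.03 in TIB153, and other genes overlap 21.1% of its exonic sequence. In the nuclear basket, NUP50 (0.07 and −0.08) and NUP153 (0.06 and −0.15) were near no change. TPR, the filament of the basket, had a ratio of −0.41 (−0.50 to −0.32) in CUTLL1 and −0.08 (−0.18 to 0.01) in TIB153.

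In the group of the cytoplasmic side and NUP98, the ratios went both ways. NUP88 (chr17:5360963-5420160, minus strand), the partner of NUP214, stood at 66.2 and 44.9 scaled CPM in treated CUTLL1 and TIB153 cells, against 97.8 and 80.9 in control cells. The treated libraries were both below the control libraries, and the change was −0.70 (SE 0.143, edgeR adjusted p = 0.00856), a level 1.63-fold lower. Genes on the other strand overlap 18.7% of its exonic sequence, and whether the counting used strand is unknown. NUP98, a channel nucleoporin known from leukaemia fusion genes, stood at 390 and 350 scaled CPM in treated cells and 330 and 277 in control cells. Both treated libraries were above both control libraries, but its change of 0.29 did not pass (edgeR adjusted p = 0.137). NUP214, which also forms leukaemia fusions, had ratios of −0.12 and −0.13. RANBP2, the large SUMO ligase of the cytoplasmic filaments, had 0.14 and −0.24, and its reads may be shared with its RGPD copies.

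Among the importins 1 of 13 tested genes fell, near the 6.78% of all genes tested. This was IPO9 (chr1:201829141-201884294, plus strand), which carries histones and actin into the nucleus. It stood at 146 and 109 scaled CPM in treated CUTLL1 and TIB153 cells, against 169 and 187 in control cells. The groups did not overlap, yet the ratios were unequal, at −0.22 (−0.34 to −0.10) and −0.77 (−0.90 to −0.65), and the change was −0.50 (SE 0.144, edgeR adjusted p = 0.0415). IPO11, a carrier of ubiquitin-conjugating enzymes, showed the same −0.77 in TIB153 with −0.19 in CUTLL1 and did not pass (edgeR adjusted p = 0.0951), and genes on its strand overlap 22.6% of its exonic sequence. IPO5, which imports ribosomal proteins, stood at 410 and 371 scaled CPM in treated cells and 504 and 512 in control cells, with a change of −0.38 (edgeR adjusted p = 0.0608).

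KPNB1, the importin beta that carries most classical cargo, was nearly level, at 845 and 783 scaled CPM in treated CUTLL1 and TIB153 cells and 897 and 835 in control cells (ratio −0.09 in each line). TNPO1, the import receptor of many RNA-binding proteins, had ratios of 0.11 and 0.05, TNPO3, the carrier of splicing factors, −0.11 and −0.17, and IPO8 −0.17 and −0.35. IPO7 had ratios of −0.11 and 0.20. IPO4 had 5 and 2 counts in treated CUTLL1 and TIB153 cells and 7 and 2 in control cells, and it was filtered out before the test. An annotated gene on the same strand overlaps 69.3% of its exonic sequence, and whether this overlap lowered the counts of IPO4 was not tested.

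The importin alpha family, the adaptors that read the classical nuclear localization signal, had 0 of 5 members that passed. KPNA4 stood at 186 and 157 scaled CPM in treated CUTLL1 and TIB153 cells, against 152 and 118 in control cells. Both treated libraries exceeded the control library of their line, with ratios of 0.29 and 0.42 and a change of 0.35 (edgeR adjusted p = 0.071). KPNA3, its closest relative, stood at 116 and 116 scaled CPM in treated cells and 150 and 150 in control cells, so that the ratio was −0.37 in each line (edgeR adjusted p = 0.0604). KPNA2 had the highest CUTLL1 ratio of all members, 0.37 (0.29 to 0.44), beside −0.10 (−0.18 to −0.03) in TIB153. KPNA2 is known to peak late in the cell cycle, and the fixed list of 13 G2 and mitosis genes had a median ratio of 0.29 in CUTLL1 and −0.12 in TIB153; its part in the KPNA2 values was not tested. KPNA6 (0.05 and 0.12) stayed within counting error, and KPNA1 had 0.11 and −0.14.

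Of the 7 exportins, 3 fell, against 6.78% of all genes tested, with class medians of −0.29 in CUTLL1 and −0.40 in TIB153. CSE1L (chr20:49046246-49096960, plus strand) returns importin alpha to the cytoplasm after import. It stood at 232 and 217 scaled CPM in treated CUTLL1 and TIB153 cells, against 342 and 370 in control cells. No treated value reached a control value, and the change was −0.67 (SE 0.126, edgeR adjusted p = 0.00585), a level 1.59-fold lower. XPO1 (chr2:61477849-61538626, minus strand) exports proteins with leucine-rich signals. It stood at 457 and 328 scaled CPM in treated cells, against 590 and 536 in control cells. The treated libraries were both below the control libraries, and the change was −0.54 (SE 0.132, edgeR adjusted p = 0.0191), with ratios of −0.37 in CUTLL1 and −0.71 in TIB153.

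XPO5 (chr6:43522330-43576075, minus strand), the exporter of microRNA precursors, stood at 206 and 152 scaled CPM in treated CUTLL1 and TIB153 cells, against 273 and 201 in control cells. The treated CUTLL1 library was slightly above the TIB153 control library, but the ratios within lines, −0.41 and −0.40, were nearly the same, and the change was −0.41 (SE 0.121, edgeR adjusted p = 0.0414). XPO6, the exporter of actin, had ratios of −0.29 and −0.39 (edgeR adjusted p = 0.0862). XPO4 had −0.10 in CUTLL1 and −0.74 in TIB153 (edgeR adjusted p = 0.115). The other two exportins were positive in both lines without passing: XPO7 with 0.25 and 0.18, and XPOT, the transfer RNA exporter, with 0.23 and 0.19.

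In the Ran cycle, RAN (chr12:130871879-130877678, plus strand) fell. It stood at 635 and 613 scaled CPM in treated CUTLL1 and TIB153 cells, against 836 and 882 in control cells. The groups did not overlap, and the change was −0.46 (SE 0.129, edgeR adjusted p = 0.0318), although 9 annotated pseudogenes carry its name and may share its reads. RCC1, which loads RAN with GTP on chromatin, had ratios of −0.26 and −0.37 (edgeR adjusted p = 0.108), and RANGAP1, which triggers GTP hydrolysis in the cytoplasm, −0.09 and −0.12. The levels of the 11 members that fell are plotted by library.

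**Figure D2:**
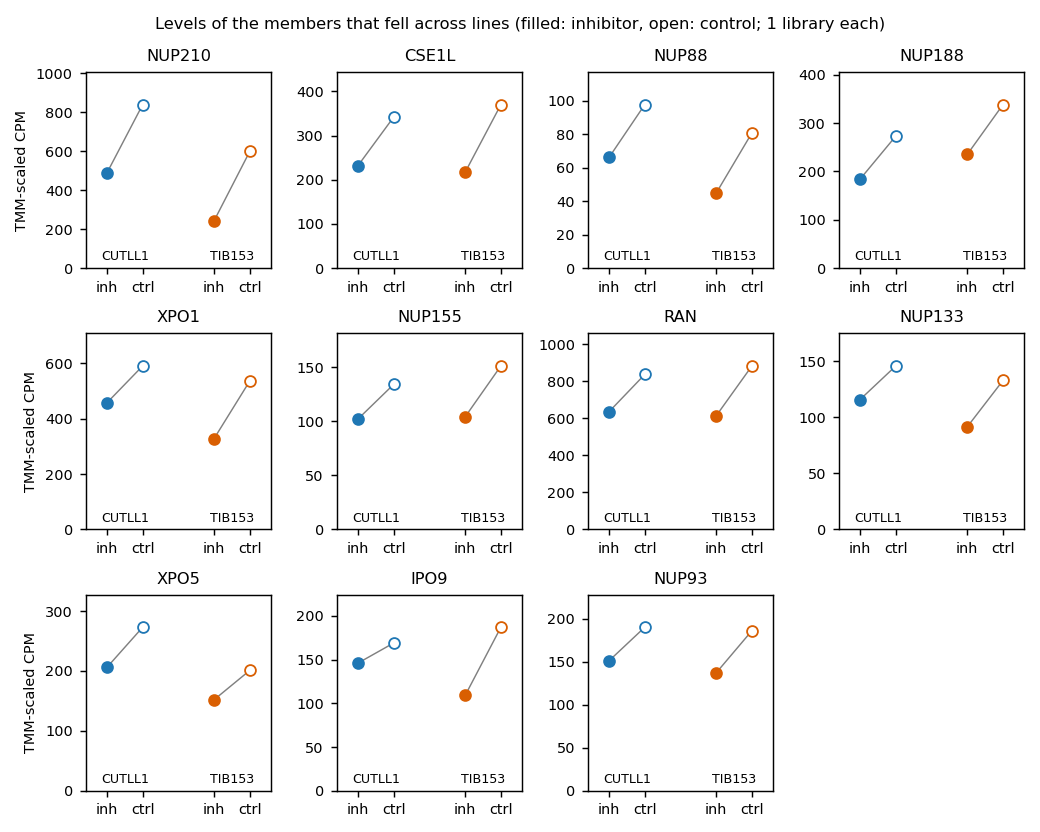
TMM-scaled CPM of the 11 members that fell across lines, in order of p, with inhibitor (inh, filled) left of control (ctrl, open) for CUTLL1 and TIB153. Each point is 1 library, without error, and each grey line joins the libraries of a line. The treated point is below the control point of its line in every panel, with NUP210 at 243 against 599 in TIB153.

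Nucleoporins were then set beside the importins and exportins. The share that fell was 6 of 25 nucleoporins (24%), 1 of 13 importins (7.69%), 3 of 7 exportins (42.9%) and 1 of 3 Ran cycle genes, against 6.78% of all genes tested. The median ratio was −0.14 in CUTLL1 and −0.24 in TIB153 for nucleoporins, −0.11 and −0.13 for importins and −0.29 and −0.40 for exportins. The importin medians include the untested IPO4. The summed level of the nucleoporins was 4340 and 3710 scaled CPM in treated CUTLL1 and TIB153 cells and 5020 and 4590 in control cells. The importins summed to 3240 and 2880 in treated cells and 3320 and 3190 in control cells, and the exportins to 1870 and 1570 against 2150 and 1980. The ranges of the classes overlap widely in the plot by class, and the difference between classes was not tested.

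**Figure D3:**
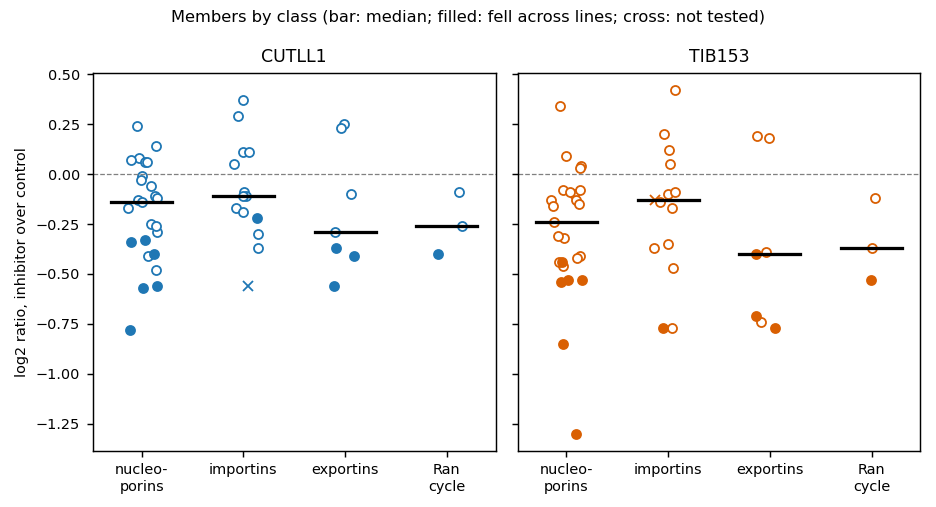
Log2 ratio, inhibitor over control, of each member, by class, in CUTLL1 (left) and TIB153 (right). Bars are medians over the members with at least 10 reads, filled points fell across lines, open points did not pass and the cross is IPO4, which was not tested. The exportin medians (−0.29 and −0.40) lie below those of the nucleoporins (−0.14 and −0.24) and importins (−0.11 and −0.13), with XPO7 and XPOT above no change in both lines.

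Per kilobase of exon, RAN was the most abundant member in control cells, and RAN and KPNA2 led in treated cells. RAN stood at 132 and 127 scaled CPM per kb in treated CUTLL1 and TIB153 cells and 173 and 183 in control cells. KPNA2 stood at 154 and 108 in treated cells and 119 and 116 in control cells, and KPNB1 at 110 and 102 against 117 and 109. NUP210 was the most abundant nucleoporin in control cells, with 59.7 and 29.7 scaled CPM per kb in treated cells and 102 and 73.2 in control cells. In treated TIB153 cells NUP50 (40.7), NUP98 (35.3) and NUP205 (30.0) were above it. IPO11 was the least abundant tested member in treated cells, at 5.24 and 4.45, against 5.98 and 7.58 in control cells, where NUP214 (6.91) and NUP35 (7.37) were lower in TIB153.

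Between lines, the members kept the same sign more often than not. Of all 49, 33 were below no change in both lines, 7 above in both and 9 opposite. The 33 include IPO4, which had 2 counts in each TIB153 library, so its sign there came from scaling alone. Beyond counting error, 22 were lower in both lines and 4 higher in both, namely NUP98, KPNA4, XPO7 and XPOT, against 15.7% lower and 13.1% higher in both lines among all genes tested. These shares depend on how many reads a gene has, since more reads give narrower intervals. The ratio differed most in size for XPO4, IPO11, IPO9 and NUP210, all lower in TIB153, and the difference between lines could not be tested with 1 library per group. The plot of the lines against each other shows the members inside the cloud of all genes, mostly at its lower left.

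**Figure D4:**
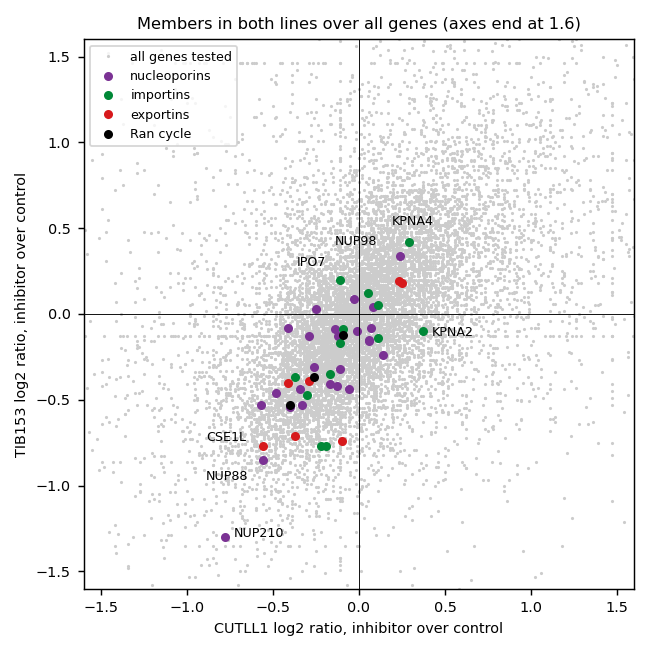
Log2 ratio, inhibitor over control, with CUTLL1 along x and TIB153 along y, for nucleoporins, importins, exportins and Ran cycle genes over all 13280 genes tested (grey; genes beyond the axis ends are not drawn). Of the 48 members drawn, 32 lie in the lower left, NUP210 lowest at −0.78 and −1.30, while KPNA2 and IPO7 have opposite signs in the lines.

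Related genes outside the set were given by fixed lists. Among all genes tested, 6.11% rose and 6.78% fell. In a list of 13 genes, 1 gene makes up 7.69%. Of 6 other nucleoporins tested, SEH1L fell and 0 rose. Of 9 other transport factors, 2 fell and 0 rose: RANBP1, a RAN cofactor that stood at 214 and 242 scaled CPM in treated CUTLL1 and TIB153 cells and 296 and 400 in control cells (change −0.60, edgeR adjusted p = 0.0103), and NUTF2, the import factor of RAN itself (−0.44, edgeR adjusted p = 0.0342). Of 19 messenger RNA export genes, 1 rose (the helicase DDX39B, 0.58) and 3 fell (THOC7, ALYREF and THOC2, between −0.43 and −0.60), with median ratios of −0.15 in each line. Of 13 nuclear lamina and envelope genes, 1 rose (SUN2, 0.60) and 0 fell. Of 13 DNA replication genes, 1 rose (CDT1, 0.65) and 9 fell, MCM6 by 0.87 and PCNA by 0.66, with medians of −0.44 in CUTLL1 and −0.40 in TIB153. Of 13 G2 and mitosis genes, UBE2C rose (0.55) and BUB1 fell (−0.58). The replication genes did not move as one, since 3 did not pass the test and CDT1 rose. Their medians were negative in both lines, as were those of the members, and their part in the members' changes was not tested.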

How the data were processed

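The lane files the authors deposited are raw read counts by gene, made from poly(A)-enriched, stranded-kit libraries. HISAT2, HTSeq and DESeq2 with hg38 are named in the submitters' processing notes. Versions, roles and the strand setting are not given in the sources used here. The 2 lanes of each library were summed, since the labels call them technical replicates, which gave 4 libraries, 1 per group. The study shows a pair of control and a pair of treated columns per line, whereas the labels give 1 library in 2 lanes. The labels were followed, and they do not say whether the groups came from separate cultures. The authors' comparison tables (fold changes and p-values) were not used. Counts were analysed in R 4.3.3, with DESeq2 1.42.0, limma 3.58.1 and edgeR 4.0.16. Genes passed filterByExpr, grouped by treatment, before fitting, TMM scaling was applied, and the robust quasi-likelihood test was run with cell line as a block, 1 residual degree of freedom and a median of 13 prior degrees of freedom, so its p-values rest mostly on a spread pooled over genes. Calls were made at an adjusted p of 0.05. Within lines, ratios were formed from scaled CPM with 0.5 counts added. Counting intervals cover counting error only. Genes were annotated with GENCODE v29, and promoters came from RefSeq. The list gene NUP42 was matched by Ensembl ID as NUPL2. All 49 members are named. Beyond them, up to 4 genes a list that passed the test could be named. Members and lists were chosen with earlier results of these data known. Scripts were tested on simulated data. The alternatives were total-count scaling, DESeq2, no filter, no block, each lane alone, a fit that was not robust, 2 counts added, a 2-fold threshold and omission of genes with near-identical copies.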

Additional observations from a re-analysis of the deposited data

Results flagged for a closer look

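For 3 members the ratio of inhibitor-treated over control cells went opposite ways in the lines, each beyond counting error, and the difference between lines was not tested, because 1 library per group leaves no residual degrees of freedom. RANBP2 had a log2 ratio of 0.14 (0.06 to 0.23) in CUTLL1 and −0.24 (−0.33 to −0.15) in TIB153. KPNA2 had 0.37 (0.29 to 0.44) in CUTLL1 and −0.10 (−0.18 to −0.03) in TIB153. IPO7 had −0.11 (−0.20 to −0.03) in CUTLL1 and 0.20 (0.11 to 0.29) in TIB153.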

How the results depend on the processing

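The count of 11 members that fell across lines was 5 with total counts only, 4 with DESeq2's Wald test, 6 from lane 2 only and 0 without the cell line block, where the spread between lines enters the error. It was 16 without a filter, 9 from lane 1 only, and 10 both without the robust fit and without POM121, RANBP2 and RAN. The count of members that rose was 0 under each of these. Total-count scaling moved the median of all genes by 0.06 on the log2 scale. Within lines, the members lower in CUTLL1 numbered 2 from lane 2 only and 0 at 2-fold, against 1. The members lower in TIB153 numbered 1 at 2-fold, against 7, and the members higher in TIB153 numbered 1 from lane 2 only, against 0. The exportin median in TIB153 was −0.29 from lane 1 only, against −0.40. The cause of these differences was not tested beyond what each setting changes. For the 48 tested members no direction that had been called was reversed under any alternative. With n = 2 lines the calls rest on a spread pooled over genes, and changes near the threshold, such as NUP93, NUP133, XPO5 and IPO9, depend on these choices.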
